A study of Homo sapiens with 6 samples.

Results

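The cytosolic ribosomal protein genes are the 82 protein-coding genes, of 58735 genes in the deposited tables, whose symbols are RPLP0, RPLP1, RPLP2 or RPSA, or RPL or RPS followed by a number with at most one further letter X, A or L. Kinase genes of the RPS6K family and hyphenated readthrough names were left out. They comprise 32 genes of the small 40S subunit and 50 of the large 60S subunit, among them 5 paralogs (RPL3L, RPL10L, RPL36AL, RPL39L and RPS27L). The cells were ARPE-19, a long-established line of human retinal pigment epithelium (RPE), and messenger RNA was sequenced in 3 libraries of cells overexpressing CD51_ICD (OE_CD51_ICD, abbreviated OE) and 3 libraries of control cells labelled WT (NC). CD51 is integrin alpha V, encoded by ITGAV. The labels name no vector, promoter, clone, dose or time, nor whether the libraries of one group derive from different cultures. The p-values therefore rest on a library-to-library spread that could be technical. The comparison asks how the ribosomal protein mRNAs of these cells stood when CD51_ICD was overexpressed.

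Each ribosomal subunit is built from ribosomal RNA and a fixed set of proteins, most of which are present in a single copy per ribosome, and their genes are usually expressed together at very high levels. Most of these mRNAs begin with a terminal oligopyrimidine (TOP) tract, a cytosine followed by an unbroken run of pyrimidines, through which the mTOR pathway and the RNA-binding protein LARP1 control their translation and stability. Their many processed pseudogenes make them difficult to count from short reads.

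Total gene counts were 14577912 to 15640428 in OE and 13616694 to 16934668 in NC. ITGAV was 436, 536 and 371 CPM (gene counts per fixed number of counts in the library, TMM-adjusted) in OE replicates 1, 2 and 3, against 113, 92.7 and 89.3 CPM in NC (log2 fold change 2.18 ± 0.11 SE, adjusted p = 1.47e-16, edgeR's quasi-likelihood test). Gene counts do not tell reads of an introduced sequence from those of the cell's own ITGAV. Of the epithelial keratins, KRT8 had 3211 to 3682 CPM in OE and 3574 to 3931 CPM in NC, and KRT18 had 1336 to 1606 CPM in OE and 1488 to 1616 CPM in NC, while RPE65, the isomerase of the visual cycle, had no count in any library. Of 10 RPE and epithelial markers 7 were tested, and PAX6, PMEL and RLBP1 were higher in OE (log2 0.59, 0.80 and 0.81, edgeR adjusted p = 5.54e-06, 1.25e-04 and 0.0134) and MITF lower (log2 -0.56, adjusted p = 0.00119). Of 8 microglia and macrophage markers only CSF1R was tested, and it was higher in OE (log2 3.19 ± 0.16 SE, adjusted p = 4.84e-16). The other 7 together had 6 to 14 counts per OE library and 7 or 8 per NC library. The biological coefficient of variation was 9.44%.

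Ribosomal protein mRNAs moved little in OE, and more of them down than up. Of the 82 genes, 80 passed the filter on low counts and were tested, of which 4 were higher (RPS13, RPLP2, RPL27A and RPS6), 29 were lower and 47 did not pass an adjusted p of 0.05, 34 of these with a log2 fold change below 0 and 13 above. Over all 13787 genes tested, 25.2% were higher and 25.8% lower by the same rule. Expressed as shares, 5% of the tested ribosomal protein genes were higher, below that background, and 36.2% were lower, above it. None changed 2-fold, against 12.7% of all genes called at that size. In bulk RNA, fewer cells of a type and less RNA per cell cannot be told apart. The median log2 fold change was -0.15 over the 80 genes and 0.01 over all genes, and the interquartile range was 0.25 and 0.77. Without OE replicate 1 the counts were 2 higher and 17 lower, beside 3071 and 2936 over all genes. Without NC replicate 1 there were 2 higher, and without NC replicate 2, NC replicate 3 or OE replicate 3 only 1. With scaling to library size alone the counts were 1 higher and 48 lower, beside 2896 and 4051 over all genes. With each library's trend with gene length removed they were 8 higher and 16 lower, beside 3364 and 3466. The share lower was then not above that of all genes, so the excess of falls depended on this step. Without OE replicate 1 the share lower was also near that of all genes, so the excess depended on that library as well.

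**Figure D1:**
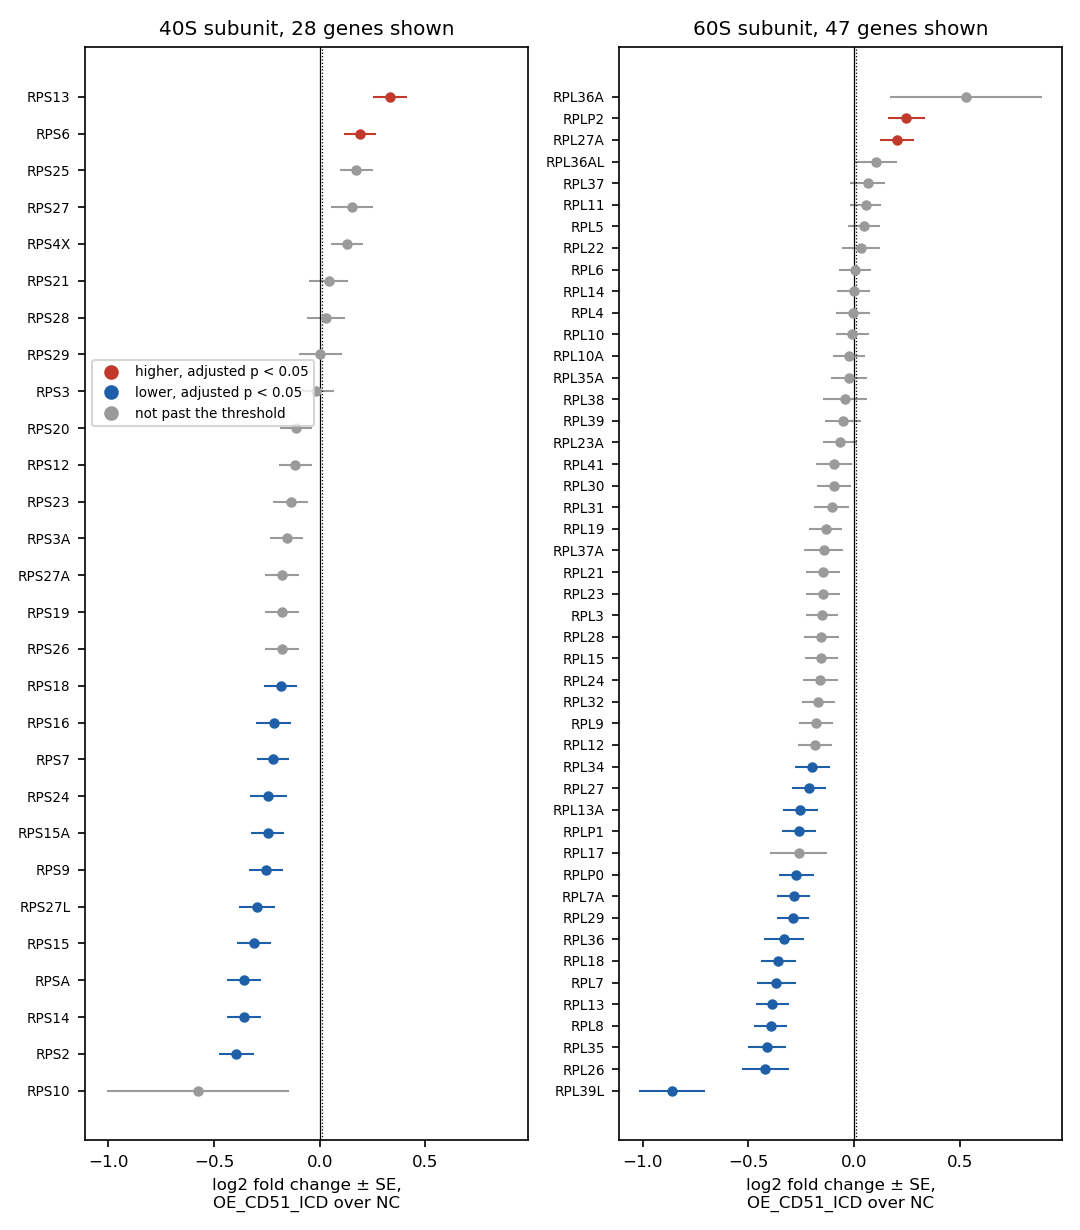
Log2 fold change ± SE of OE_CD51_ICD over NC for 75 of the 80 tested ribosomal protein genes, 40S on the left and 60S on the right, coloured by the edgeR call at an adjusted p under 0.05 (3 libraries per group). The solid line marks 0 and the dotted line the median of all genes tested, 0.01. Most points lie left of both lines, and the wide bars belong to RPS10 and RPL36A, which had few counts.

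Both subunits had similar medians. Of 32 40S genes, 2 were higher and 13 lower, with a median log2 fold change of -0.18. Of 48 tested 60S genes, 2 were higher and 16 lower, with a median of -0.15. The 29 falls spanned log2 values of -0.86 to -0.19, and without RPL39L the largest was -0.42. Of the 16 tested genes with a log2 fold change below -0.3, 15 were called lower. The exception was RPS10, whose 29 counts over OE and 46 over NC gave -0.58 ± 0.43 SE (adjusted p = 0.273).

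Start sites are shown for the 4 higher genes and for 6 of the lower ones, chosen after their values were seen and among them RPS27L, which lacks a tract, because the TOP tract is the feature by which these mRNAs are jointly controlled. The RefSeq table (build GRCh38.p14) held start windows for 65 of the 82 genes. Each line gives 30 bases before and 15 bases from the annotated start, 5′ to 3′ on the coding strand, with the pyrimidine tract in capitals. The first 4 genes were higher in OE and the rest lower.
RPS13: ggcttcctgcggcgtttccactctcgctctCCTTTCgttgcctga
RPLP2: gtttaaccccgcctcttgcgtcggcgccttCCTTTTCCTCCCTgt
RPL27A: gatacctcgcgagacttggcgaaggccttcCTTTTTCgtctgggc
RPS6: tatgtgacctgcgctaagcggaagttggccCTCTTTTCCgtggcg
RPL35: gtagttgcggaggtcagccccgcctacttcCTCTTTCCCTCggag
RPL13: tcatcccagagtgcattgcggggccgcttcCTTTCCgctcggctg
RPL26: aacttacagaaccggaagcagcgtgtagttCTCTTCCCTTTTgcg
RPS14: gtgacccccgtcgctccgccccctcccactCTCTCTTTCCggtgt
RPSA: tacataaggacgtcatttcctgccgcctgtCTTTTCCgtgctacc
RPS27L: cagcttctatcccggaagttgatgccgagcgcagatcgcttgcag

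These windows lie at chr11:17077653-17077697 (minus strand) for RPS13, chr11:809937-809981 (plus) for RPLP2, chr11:8682762-8682806 (plus) for RPL27A and chr9:19380222-19380266 (minus) for RPS6. Those of the lower genes are chr9:124861943-124861987 (minus) for RPL35, chr16:89560652-89560696 (plus) for RPL13, chr17:8383179-8383223 (minus) for RPL26, chr5:150449725-150449769 (minus) for RPS14, chr3:39406690-39406734 (plus) for RPSA and chr15:63157463-63157507 (minus) for RPS27L. RPL13 had 3 annotated starts, and the one with a tract is shown. The tract ran from 6 bases in RPS13 and RPL13 to 13 bases in RPLP2, so a short or long tract was present on either side of the comparison, and RPS27L had none.

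A tract, defined as C at the first base followed by at least 4 bases of C or T on the coding strand, was found at an annotated start of 46 of the 65 genes (70.8%), against 5.14% of 27236 genes in the table. The 46 genes held 4 higher and 17 lower calls, with a median log2 fold change of -0.16. Among 18 tested genes without it there were 0 higher and 4 lower calls, with a median of -0.15. The median was thus nearly the same with and without a tract at the annotated start. A tract beginning away from that base was not counted, and the start used in these cells was not tested. At an unadjusted p under 0.05 in edgeR, and with DESeq2, 0 of the 18 were higher. Over all genes tested, 25.2% were higher and 25.8% lower. The difference in calls with and without the tract was not tested. In the whole window of 250 bases before to 50 after the start, on either strand, CCGGAAG was present in 35.4% of the ribosomal protein genes and 12.2% of all genes. GGGCGG was present in 60% and 48.3%, and TATAAA in 9.23% and 14%. A gene counted once if any of its starts held the letters. The 17 genes without a window included RPL3L, RPL5, RPL7, RPL8, RPL23, RPL23A, RPL30, RPL37, RPL39L, RPS2, RPS15A and RPS20.

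RPS13 was the gene with the largest rise. It encodes a protein of the 40S body at the interface with the large subunit (ENSG00000110700, chromosome 11, 17074389 to 17077787, GRCh38). It measured 361, 334 and 400 CPM in OE and 304, 280 and 285 CPM in NC, so every OE library lay above every NC library. This was a 1.26-fold rise (log2 0.33 ± 0.08 SE, edgeR adjusted p = 9.96e-04). RPS6, a 40S protein phosphorylated by the S6 kinases downstream of mTOR, had 711, 733 and 771 CPM in OE against 634, 674 and 631 CPM in NC. Its 1.14-fold rise also came without overlap (log2 0.19 ± 0.08 SE, adjusted p = 0.0363). RPL27A, a 60S protein, had 1155, 1066 and 1273 CPM in OE and 1001, 1028 and 1005 CPM in NC (1.15-fold, log2 0.20 ± 0.08 SE, adjusted p = 0.0320). RPLP2, an acidic protein of the ribosomal stalk, had 635, 604 and 785 CPM in OE and 602, 551 and 552 CPM in NC, with OE replicate 2 only just above NC replicate 1 (1.19-fold, log2 0.25 ± 0.09 SE, adjusted p = 0.0195). RPS25, in the 40S head, was likewise higher in every OE library, at 434, 421 and 437 CPM against 383, 406 and 356 CPM in NC, but did not pass (adjusted p = 0.0623).

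These small rises differed in how far they rested on single libraries. RPS13 was higher under each alternative that tested it. RPLP2 lost its call without OE replicate 3 (adjusted p = 0.140), NC replicate 2 (0.0883) or NC replicate 3 (0.0620). Among the fits that left out 1 library, RPL27A passed only without OE replicate 2. Without OE replicates 1 and 3 in turn its adjusted p was 0.0863 and 0.105, and without NC replicates 1, 2 and 3 it was 0.111, 0.0759 and 0.0627. RPS6 likewise had 0.0733 and 0.0569 without OE replicates 1 and 3, and 0.140, 0.0582 and 0.0924 without NC replicates 1, 2 and 3. Removing the trend with GC content from each library took the log2 fold change of RPS6 to -0.02 (adjusted p = 0.874).

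The largest fall was in RPL39L, an autosomal paralog of the X-linked tunnel protein gene RPL39 that is best known from the testis. RPL39L had 12.1, 7.93 and 12.9 CPM in OE and 19.3, 20.2 and 20.3 CPM in NC. The OE libraries were all below the NC libraries, with OE replicate 2 lowest, and the difference was 1.82-fold (log2 -0.86 ± 0.16 SE, adjusted p = 2.92e-05). RPL39 itself had 134, 131 and 149 CPM in OE and 157, 143 and 129 CPM in NC, with overlapping groups (log2 -0.05 ± 0.09 SE, adjusted p = 0.639). Per length, RPL39L stood at 10.2 ± 2.60 FPKM in OE and 18.7 ± 0.544 in NC, and RPL39 at 63.7 ± 5.09 FPKM in OE and 66.3 ± 6.28 in NC (SD, n = 3 each). FPKM is the authors' count scaled to gene length and library size.

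The coding sequences of this pair are shown because their reads are separated by few bases. They come from GENCODE 29 transcripts, 5′ to 3′, with capitals at the positions where the pair differ.
RPL39: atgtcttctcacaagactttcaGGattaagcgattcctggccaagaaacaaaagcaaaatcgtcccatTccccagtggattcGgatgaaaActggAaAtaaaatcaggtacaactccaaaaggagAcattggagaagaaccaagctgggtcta
RPL39L: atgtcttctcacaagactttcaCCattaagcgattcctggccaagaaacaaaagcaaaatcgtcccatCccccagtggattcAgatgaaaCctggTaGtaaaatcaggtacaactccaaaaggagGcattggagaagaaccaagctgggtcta

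The 2 coding sequences of 153 bases differed at 8 positions and were 94.8% identical. No stretch of 50 bases of the RPL39L coding sequence occurred in a transcript of another gene, so a read of that length inside it matches no other annotated transcript. The RPS27 and RPS27L pair was less alike, at 77.8% identity over 252 bases without gaps. RPS27L, a paralog induced by p53, had 98.7, 99.4 and 102 CPM in OE and 129, 129 and 111 CPM in NC, without overlap (log2 -0.30 ± 0.08 SE, adjusted p = 0.00403). RPS27 had 245, 186 and 254 CPM in OE against 198, 233 and 185 CPM in NC, and the groups overlapped (log2 0.15 ± 0.10 SE, adjusted p = 0.205). In each of these pairs the paralog was called lower and the parent gene was not, a difference between the genes that was not tested. RPL39 was called lower with the GC trend removed (log2 -0.23, adjusted p = 0.0283). RPS27 was called higher with the length trend removed (log2 0.29, adjusted p = 0.00829) and without OE replicate 2 (log2 0.29, adjusted p = 0.00828).

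The other paralogs were low or flat. RPL36AL had 46.1, 45.2 and 45.1 CPM in OE and 46.9, 42.5 and 37.4 CPM in NC (log2 0.10 ± 0.10 SE, adjusted p = 0.408). RPL36AL was 89.9% identical to RPL36A, which had 82 counts over OE and 60 over NC. RPL3L, a striated muscle form of RPL3, had 9 counts over OE and 10 over NC and was not tested, while RPL3 stood at 673 ± 44.0 FPKM in OE and 751 ± 10.8 in NC (log2 -0.15 ± 0.08 SE, adjusted p = 0.0996, and 0.0331 without OE replicate 3). RPL10L, a testis retrogene of RPL10, had no count in any library, and RPL10 was level (log2 -0.01 ± 0.08 SE, adjusted p = 0.947). Outside the naming rule, RPL22L1, the paralog of RPL22, was lower (31.3, 33.2 and 37.8 CPM in OE, 54.2, 65.0 and 47.1 CPM in NC, log2 -0.70 ± 0.11 SE, adjusted p = 4.99e-06). RPL22 was not called (log2 0.03 ± 0.09 SE, adjusted p = 0.773), and with the GC trend removed its value was -0.19 (adjusted p = 0.0407). RPL7L1 and RPL26L1 did not pass, though RPL7L1 was called lower with the GC trend removed (log2 -0.18, adjusted p = 0.028). In the fit without trend removal, RPL22L1 was the only one called of the 6 subunit genes outside the rule, which also include FAU and RACK1.

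Among the abundant genes, RPL35, RPS2 and RPL8 were in the group of largest falls. RPL35, a 60S protein at the mouth of the peptide tunnel, had 601, 520 and 719 CPM in OE and 844, 828 and 776 CPM in NC (log2 -0.41 ± 0.09 SE, adjusted p = 3.56e-04). RPS2, which lies near the entry of the mRNA channel, had 2672, 2543 and 3077 CPM in OE and 3710, 3653 and 3538 CPM in NC (log2 -0.39 ± 0.08 SE, adjusted p = 1.58e-04). RPL8, a conserved protein near the peptidyl transferase centre, had 1755, 1633 and 1940 CPM in OE and 2357, 2356 and 2289 CPM in NC (log2 -0.39 ± 0.08 SE, adjusted p = 1.21e-04). In each of these 3 genes OE replicate 3 was the highest of its group and OE replicate 2 the lowest, and no OE library reached the lowest NC library.

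RPL13, of the 60S subunit, had 1486, 1409 and 1663 CPM in OE and 2061, 1986 and 1909 CPM in NC (log2 -0.39 ± 0.08 SE, adjusted p = 1.67e-04). RPL39L, RPL13, RPS14 and RPS27L were among the 5 genes called lower under all 23 alternative settings. RPS14, a platform protein whose loss contributes to the anaemia of the 5q deletion syndrome, had 864, 801 and 961 CPM in OE and 1205, 1103 and 1059 CPM in NC. RPL8 was among the falls lost when the GC trend was removed (log2 -0.11, adjusted p = 0.0954).

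RPL26 fell by a similar ratio at far lower counts. It encodes another protein at the tunnel exit and had 30.2, 28.6 and 28.0 CPM in OE against 41.0, 42.1 and 33.1 CPM in NC (log2 -0.42 ± 0.11 SE, adjusted p = 0.00215), and just missed the threshold with the length trend removed (log2 -0.25, adjusted p = 0.0538).

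**Figure D2:**
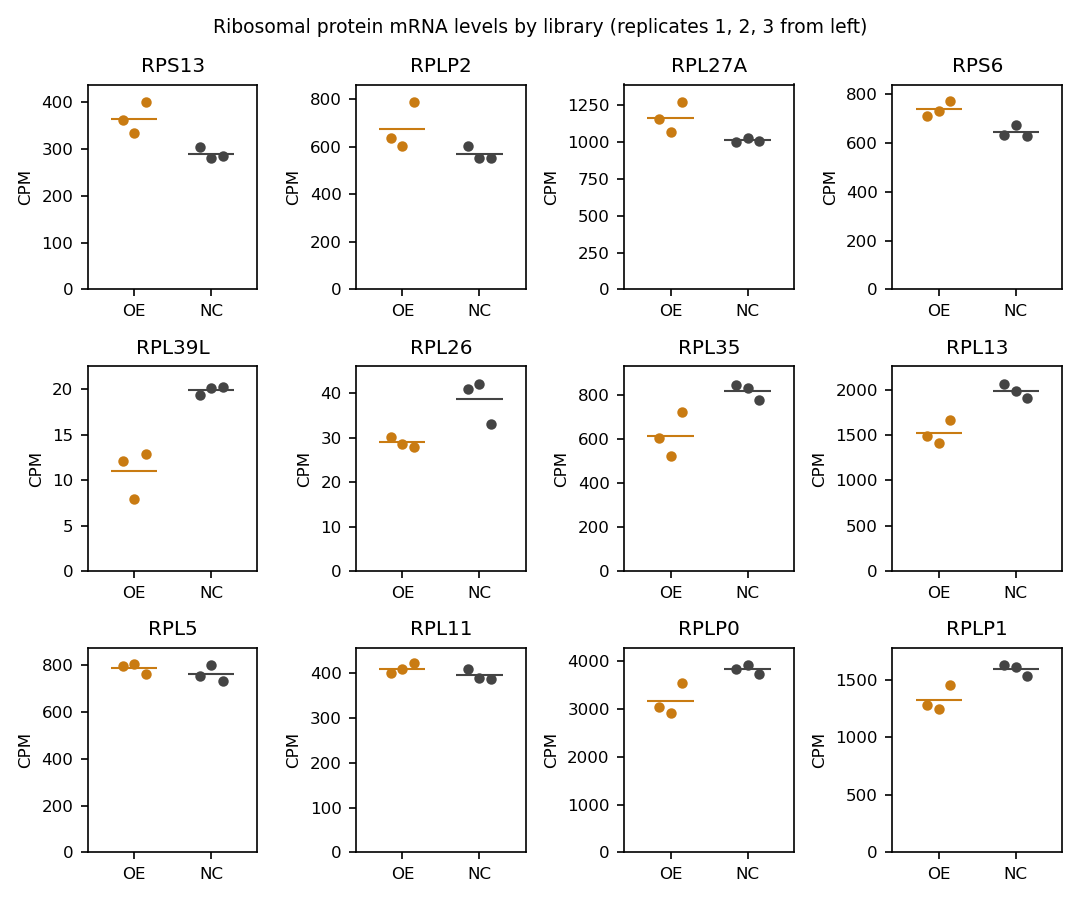
CPM by library for the 4 genes that were higher, 4 of those that fell most, the 5S RNA partners RPL5 and RPL11, and the stalk genes RPLP0 and RPLP1, with OE_CD51_ICD (orange) left of NC (grey). Points are replicates 1, 2 and 3 from left to right and lines are means of 3. All axes start at 0. RPL5 and RPL11 show groups at the same height, at 787 and 761 CPM and at 410 and 395 CPM on average.

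The ribosomal stalk, which recruits translation factors, held calls in both directions. RPLP0, its base, had 3036, 2918 and 3548 CPM in OE and 3835, 3915 and 3731 CPM in NC (log2 -0.27 ± 0.08 SE, adjusted p = 0.00614). RPLP1, the partner of RPLP2 in the stalk dimers, had 1282, 1249 and 1456 CPM in OE and 1631, 1611 and 1537 CPM in NC (log2 -0.26 ± 0.08 SE, adjusted p = 0.00680). RPLP2 was higher, as given above, and RPL12, which holds the stalk base, did not pass (log2 -0.19 ± 0.08 SE, adjusted p = 0.0518). Without OE replicate 1 the adjusted p was 0.0703 for RPLP0 and 0.0804 for RPLP1. RPLP0 also lost its call with the GC trend removed (log2 -0.10, adjusted p = 0.171) or the length trend removed (adjusted p = 0.0582), and RPLP1 with the length trend removed (log2 -0.14, adjusted p = 0.166). Without OE replicate 3 the call of RPLP2 was lost (adjusted p = 0.140), as it was without NC replicate 2 (0.0883) or NC replicate 3 (0.0620).

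RPL5 and RPL11, which bind 5S ribosomal RNA and, when free, the p53 regulator MDM2, were not called. RPL5 had 793, 806 and 762 CPM in OE and 751, 800 and 731 CPM in NC (log2 0.05 ± 0.08 SE, adjusted p = 0.616). RPL11 had 400, 408 and 421 CPM in OE and 409, 390 and 386 CPM in NC (log2 0.05 ± 0.08 SE, adjusted p = 0.572), and was called higher with the length trend removed (log2 0.22, adjusted p = 0.0238). RPS27A, made as a fusion with ubiquitin, had 356, 358 and 348 CPM in OE and 415, 429 and 358 CPM in NC, with OE replicate 2 marginally above NC replicate 3 (log2 -0.18 ± 0.08 SE, adjusted p = 0.0668). It was called lower without NC replicate 3 (log2 -0.26, adjusted p = 0.0109), with the GC trend removed (log2 -0.35, adjusted p = 2.44e-04) and with scaling to library size alone (adjusted p = 0.0133).

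By position in the ribosome, the 14 genes of the 40S head held 0 higher and 5 lower calls (among them RPS15, RPS16 and RPS18), with a median of -0.18. RPS16 was called lower under 13 and RPS18 under 5 of the 23 alternatives. The 17 genes of the 40S body and platform held 2 higher and 7 lower, with a median of -0.16. Of 7 genes at the tunnel exit, RPL26 and RPL35 were lower and none was higher (median -0.13). Of 19 genes mutated in Diamond-Blackfan anaemia, an inherited failure of red cell production, 8 were lower (among them RPS7, RPS15A, RPS24, RPL18, RPL26, RPL27 and RPL35) and 0 higher, with a median of -0.18. At an unadjusted p under 0.05 in edgeR, 1 gene of the 40S head (RPS25), 0 of the tunnel exit and 0 of the anaemia genes were higher, and DESeq2 at an adjusted p under 0.05 gave the same counts. These calls stood beside the same background of 25.8% lower and 25.2% higher over all genes.

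Read together by library, the ribosomal protein genes took 5.76%, 5.67% and 6.29% of all counts in OE replicates 1, 2 and 3, and 7.11%, 7.21% and 6.75% in NC replicates 1, 2 and 3. The groups did not overlap, at 5.91 ± 0.338% in OE and 7.02 ± 0.241% in NC (SD, n = 3 each), a difference of -1.11 percentage points. The two-sided exact permutation test gave p = 0.1, the smallest that 3 libraries against 3 allow. Fewer transcripts of these genes and more of others cannot be told apart in a share.

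**Figure D3:**
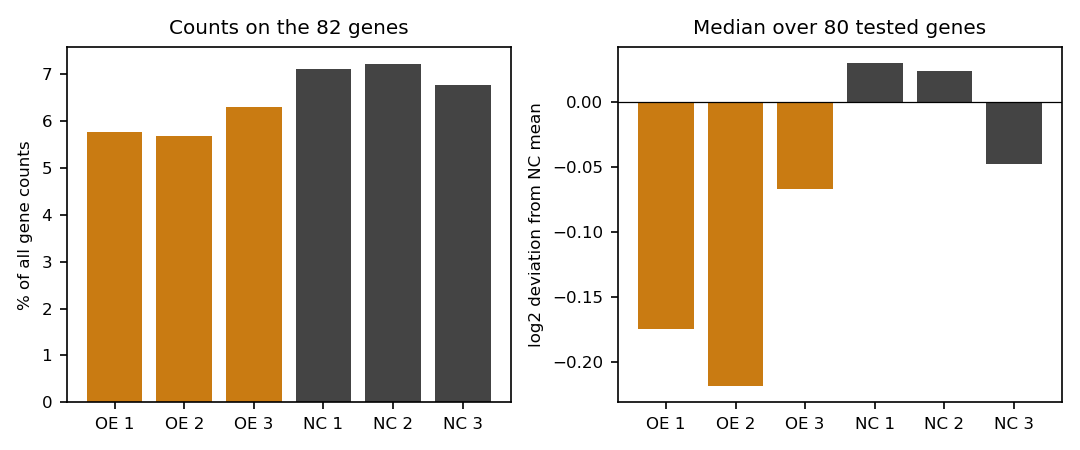
Left, percent of all gene counts on the 82 ribosomal protein genes by library. Right, median over the 80 tested genes of the log2 deviation from the NC mean, in log2(CPM + 0.5). OE_CD51_ICD libraries (orange) stand left of NC libraries (grey). OE replicate 3 is the OE library nearest to NC in both panels, and NC replicate 3 the NC library nearest to OE.

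The libraries of a group did not sit at one level. The median deviation of the 80 genes from the NC mean was -0.17, -0.22 and -0.07 in OE replicates 1, 2 and 3, and 0.03, 0.02 and -0.05 in NC replicates 1, 2 and 3. OE replicate 3 was the highest of its group for 64 of the 80 genes and OE replicate 2 the lowest for 53. NC replicate 3 was the lowest of its group for 54. The groups did not overlap, with OE lower, in 33 genes, and with OE higher in 5, against 29.5% and 28.0% of all genes tested.

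Across the 80 genes, the log2 fold change had a Pearson r of 0.32 and a Spearman rho of 0.26 with the median of all tested genes of the same chromosome, given as a description. All 3 called rises other than RPS6 lay on chromosome 11, where 5 ribosomal protein genes (RPS3, RPS13, RPS25, RPL27A and RPLP2) had a median log2 fold change of 0.20 and all 792 tested genes one of 0.21. Of the genes of chromosome 11, 40.4% were called higher and 17.3% lower. RPS3, whose protein lines the mRNA entry channel, had 2073, 1939 and 2344 CPM in OE and 2286, 2128 and 2015 CPM in NC and was not called (log2 -0.02 ± 0.08 SE, adjusted p = 0.886). Away from chromosome 11, 1 of 75 tested ribosomal protein genes was higher (1.33%) and 29 were lower (38.7%), with a median of -0.16. All genes tested, on any chromosome, had 25.2% higher and 25.8% lower.

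Chromosome 19 held 12 of the genes, of which 8 were lower and 0 higher, with a median of -0.25. All 947 tested genes of chromosome 19 had a median of -0.18, with 38.9% lower and 15% higher. On chromosome 17 the median was -0.14 for 6 ribosomal protein genes and -0.13 for all tested genes. Some other chromosomes did not follow their median. On chromosome 15, 3 of 4 genes were lower, against 21.2% of all its tested genes, and the medians were -0.28 and 0.06. On chromosome 8 the medians were -0.24 and 0.02, and on chromosome 3 they were -0.16 and 0.07. Chromosomes 16, 17, 19 and 22 had the lowest medians over all tested genes. Of all tested genes on each, 36.9% to 38.9% were lower and 15% to 18.2% higher. On these chromosomes together, 13 of 22 tested ribosomal protein genes were lower (59.1%) and 0 higher, with a median of -0.23. At an unadjusted p under 0.05 the count higher was also 0 on these chromosomes, as it was with DESeq2. On all other chromosomes 16 of 58 were lower (27.6%) and 4 higher (6.9%), with a median of -0.13. The shares over all genes tested were 25.8% lower and 25.2% higher, so the share lower here was near that background. The 5 genes of chromosome 1 (among them RPL5, RPL11, RPL22 and RPS27) had a median of 0.05 and none was called, nor did any have an unadjusted p under 0.05 in edgeR. All 1413 tested genes of chromosome 1 had a median of 0.01, with 26.6% higher and 25.6% lower.

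GC content also varied with the fold change across these genes. Over 80 genes the log2 fold change had a Pearson r of -0.36 and a Spearman rho of -0.39 with the GC content of the transcript, given as a description since the genes share the same 6 libraries. The transcript was the longest principal one, which for RPL37 had 7686 bases with 291 coding bases. Whether it is the main mRNA in these cells was not tested. Divided at GC contents of 47% and 53%, bounds set after the values were seen, 24 genes below had 3 lower and 1 higher (median -0.10). The 34 genes between had 12 lower and 2 higher (median -0.13), and the 22 above had 14 lower and 1 higher (median -0.28). Over all genes tested, 25.2% were higher and 25.8% lower, and shares of all genes in these GC ranges are not given here. With the GC trend of each library removed, a step added after seeing the data, the medians in the same order were -0.23, -0.12 and -0.06. The total was then 3 higher and 34 lower, with 17 of the 29 falls and RPS13 and RPLP2 of the rises called as before. Which genes were called lower thus depended on this step, while the median of all 80 genes was -0.14.

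**Figure D4:**
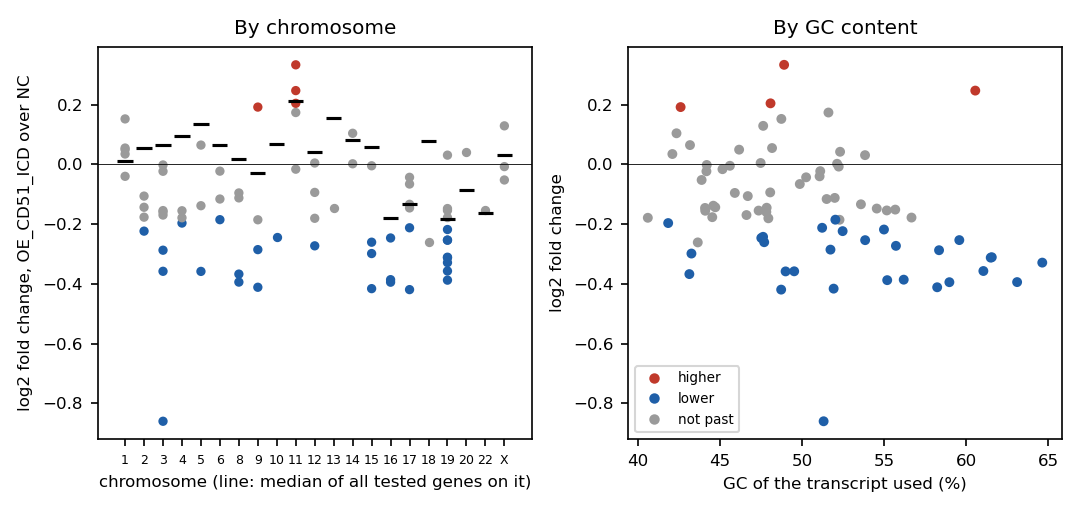
Log2 fold change of OE_CD51_ICD over NC for 78 ribosomal protein genes with a mean above 1 FPKM, by chromosome (left, black bars give the median of all tested genes of that chromosome) and by GC content of the transcript in percent (right). Colours give the edgeR call. The chromosome 11 genes sit around its raised median of 0.21, and most genes above 53% GC are called lower.

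Per length, the level of these genes ranged widely. RPS2, at 1132 ± 127 FPKM in OE and 1495 ± 30.6 FPKM in NC, had the highest mean over the libraries. RPL13A, often used as a reference gene, had 1143 ± 139 FPKM in OE and 1368 ± 31.7 FPKM in NC. RPL8 had 813 ± 80.4 FPKM in OE and 1073 ± 14.3 FPKM in NC, and RPS12 had 885 ± 51 FPKM in OE and 964 ± 50 FPKM in NC (SD, n = 3 each). In the mean over all 6 libraries RPS2 (1314 FPKM) and RPL13A (1256 FPKM) were close to each other, as were RPL8 (943 FPKM) and RPS12 (925 FPKM). RPL13A was lower in OE (2648, 2492 and 3075 CPM in OE, 3344, 3280 and 3172 CPM in NC, log2 -0.25 ± 0.08 SE, adjusted p = 0.0109). It lost its call without OE replicate 1 (0.0898), OE replicate 2 (0.0787) or NC replicate 1 (0.0503), and with the length trend (log2 -0.08, adjusted p = 0.467) or the GC trend removed (log2 -0.14, adjusted p = 0.0870). RPS12 was not called (log2 -0.12 ± 0.08 SE, adjusted p = 0.218).

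The gene length in the deposited table was often far above that of the mRNA, for example 9845 bases for RPS29, whose transcript used here has 677, so FPKM values of such genes understate them. Apart from RPS29 and the paralogs, the lowest levels were found in genes that share annotation. In 7 genes more than 50% of the coding bases lay under exons of another annotated gene on the same strand, among them RPL17 (100%), RPL36A (94.3%), RPS10 (92.1%), RPL26 (71.0%), RPL22 (59.9%) and RPS15A (54.6%). Their mean levels ran from 0.348 FPKM in RPS10 to 25.8 FPKM in RPS15A, with a median of 6.82 FPKM. The 70 other genes, with paralogs left out, ran from 12.7 to 1314 FPKM with a median of 228 FPKM. The readthrough genes over RPL17, RPL36A and RPS10 held at most 1 count in any library. Low levels of these 7 genes are levels of the assigned counts, and the part of the counting in them was not tested.

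**Figure D5:**
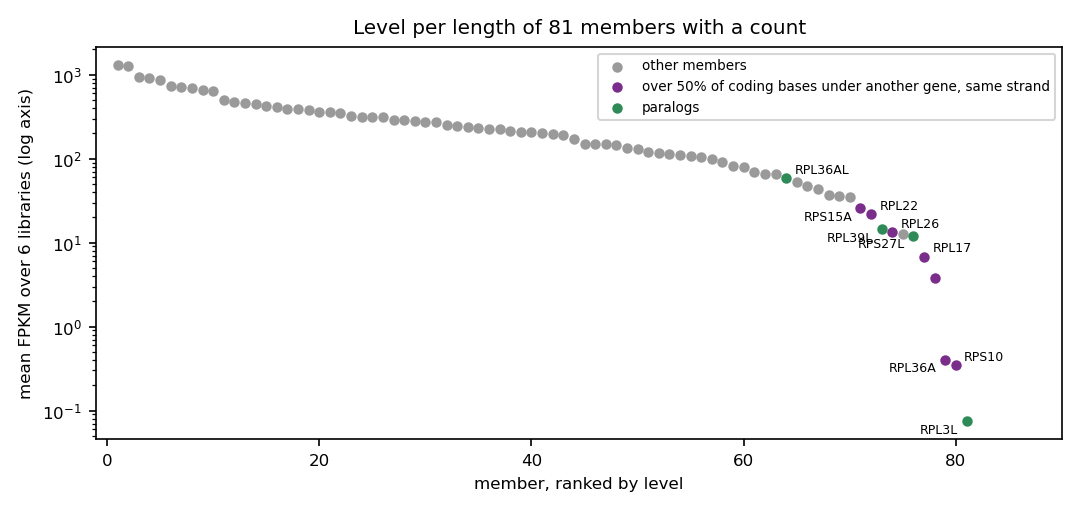
Mean FPKM over 6 libraries, on a log axis, of the 81 ribosomal protein genes with a count, ranked from highest to lowest. Purple points are the 7 genes with over 50% of coding bases under another gene on the same strand, and green points are paralogs. Apart from RPS29 and the paralogs, the lowest points are purple, with RPS10 at 0.348 FPKM.

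Pseudogene rows held part of the counts. The table held 1132 rows named for 76 of the genes as pseudogenes, of which 280 had a count. They drew 4.11%, 4.08% and 4.16% of the counts of genes and pseudogenes together in OE replicates 1, 2 and 3, and 4.24%, 4.27% and 4.13% in NC. The share was under 1% for 55 genes and over 10% for 11. For RPL9 it was 65.2% in OE and 65.4% in NC, nearly all on RPL9P9, and for RPS28 it was 37.3% in OE and 36.6% in NC. Of 65 such rows tested, 3 were higher (4.62%) and 16 lower (24.6%), with a median of -0.19. Over all genes tested, 25.2% were higher and 25.8% lower, so the share of rows lower was near that of all genes. With pseudogene counts added to each gene, 4 genes were higher and 27 of the 29 falls were still called. Pseudogenes with clone names are not in these counts.

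Other gene groups of translation are given beside the shares over all genes, 25.2% higher and 25.8% lower. Mitochondrial ribosomal proteins, a separate family of nuclear genes, had 2 higher and 45 lower of 78, with a median of -0.32. Of 16 genes for elongation factors and other TOP mRNAs, 15 were tested, and 5 were higher (EEF1A1, EIF3H, EIF4B, HNRNPA1 and NAP1L1) and 5 lower (EEF1D, EEF2, EIF3E, GAS5 and NPM1), 33.3% in each direction and near those shares. With the GC trend removed, EIF3H (log2 0.08, adjusted p = 0.459) and EEF1D (log2 -0.08, adjusted p = 0.2525) were not called. DESeq2 did not call EIF3E (adjusted p = 0.0721). NAP1L1, a histone chaperone, had 565, 570 and 495 CPM in OE and 397, 382 and 399 CPM in NC (log2 0.47 ± 0.08 SE, adjusted p = 1.07e-05), and did not pass with the length trend removed (log2 0.15, adjusted p = 0.138). EEF2, the translocation factor, had 7812, 7062 and 8414 CPM in OE and 10117, 9765 and 10654 CPM in NC, a value chosen after the data were seen (log2 -0.39 ± 0.08 SE, adjusted p = 1.82e-04). EEF1G had no assigned count in any library, and the part of the counting in this was not tested.

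Of 16 genes of TOR signalling and TOP control, 5 were higher (31.2%) and 8 lower (50%). MLST8, a subunit of the TOR complexes, had 66.4, 61.5 and 76.4 CPM in OE and 117, 109 and 113 CPM in NC (log2 -0.73 ± 0.09 SE, adjusted p = 6.52e-08). MYC, which drives transcription of ribosomal genes, had 96.1, 105 and 94.9 CPM in OE and 140, 157 and 171 CPM in NC (log2 -0.66 ± 0.09 SE, adjusted p = 2.44e-07), and its partner MAX was higher (log2 0.52 ± 0.11 SE, adjusted p = 1.38e-04). RPS6KB1, the kinase of RPS6, was higher (log2 0.59 ± 0.18 SE, adjusted p = 0.00644), but not without OE replicate 2 (adjusted p = 0.0541) or with the GC trend removed (log2 0.33, adjusted p = 0.0725). LARP1 was lower, with 232, 218 and 219 CPM in OE and 262, 263 and 300 CPM in NC, and was chosen after the data were seen (log2 -0.30 ± 0.08 SE, adjusted p = 0.00227).

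Of 12 chaperones and importers of ribosomal proteins, 1 was higher (8.33%) and 4 lower (33.3%). GRWD1, the chaperone of RPL3, had 65.2, 62.3 and 75.5 CPM in OE and 145, 136 and 132 CPM in NC (log2 -1.03 ± 0.09 SE, adjusted p = 5.29e-11). RPS19BP1 (log2 -0.40 ± 0.11 SE, adjusted p = 0.00366, and -0.12 with adjusted p = 0.296 once the GC trend was removed), TSR2, the chaperone of RPS26, and HEATR3, which imports RPL5, were the other falls. IPO7, an importin on chromosome 11, was the rise, with 144, 182 and 135 CPM in OE and 101, 91.1 and 94.5 CPM in NC (log2 0.69 ± 0.09 SE, adjusted p = 4.87e-07). The fall of GRWD1 was larger than that of any tested ribosomal protein gene.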

How the data were processed

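Per the labels' protocols, ARPE-19 RNA was extracted with either of a pair of kits, which libraries with which is not recorded, and turned into mRNA libraries with a SMARTER kit. The build was hg38, per the submitters' processing notes, while the aligner, counter and strand setting were not given there, so how counts of overlapping genes on either strand were divided is not known. The authors deposited whole-number gene counts and FPKM values for 6 libraries. Per the file headers, both tables give gene IDs, symbols, GRCh38 coordinates, biotypes and lengths. The deposited FPKM values were the counts divided by gene length and 1 constant per library, which was 0.961 to 1.05 times its total.

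Counts were tested with edgeR 4.0.16 (R 4.3.3): filterByExpr, TMM, glmQLFit and glmQLFTest, two-sided, with Benjamini-Hochberg adjustment over 13787 genes and a threshold of 0.05. Standard errors were derived from the F statistic. The code was checked on simulated counts. Alternatives used other scalings and filters, DESeq2 1.42.0, limma 3.58.1, FPKM on a log2 scale with pseudocounts of 1 and 0.1, trend removal, the omission of each library or of chromosome 11, added pseudogene counts and a replicate block. Coding sequences, overlaps, GC content and shared stretches of 50 bases came from the longest coding GENCODE 29 transcript marked as principal. Start windows came from RefSeq. Identity was computed with Biopython 1.88, correlations with SciPy 1.17.1, the exact permutation test in R, tables with pandas 2.3.3 and NumPy 2.4.6 in Python 3.11.15, and plots with matplotlib 3.10.9.

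The genes and lists were chosen with earlier results of these data known. Named genes were the called ribosomal protein genes with the 8 largest rises and falls, the 4 with the highest FPKM, RPLP0, RPLP1, RPLP2, RPL5, RPL11, RPS6 and RPS27A, both genes of paralog pairs, and the 2 largest changes in each direction of each list without ribosomal protein genes. Others named with values were chosen after their values were seen. Some genes that the rule takes are not reported here. Protein sequences were not used here.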

Additional observations from a re-analysis of the deposited data

How the results depend on the processing

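RPS13 was the only rise called under every alternative that tested it. The count of ribosomal protein genes higher, 4 in the report, was 1 with library size only, 2 with every gene with a count, 1 with limma on log2(FPKM + 1), 1 with log2(FPKM + 0.1), 1 with log2(FPKM + 1) and no filter, 8 with the length trend removed, 1 without chromosome 11 and 1 to 6 when each library was left out in turn. The count lower, 29 in the report, was 48 with library size only, 12 with log2(FPKM + 1) and no filter, 16 with the length trend removed and 17 to 40 when each library was left out. With the length trend removed, the median log2 fold change was -0.07 over all tested ribosomal protein genes and -0.049 over the 40S genes, and with the GC trend removed the 40S median was -0.10. The sign reversed with the GC trend removed for RPS6 (-0.015) and RPL22 (-0.19). With no call either way it also reversed for RPL5 (-0.073), RPL11 (-0.0054), RPL36AL (-0.11), RPL3 (0.019) and RPL10 (0.063). The same held for RPL37 (-0.13), RPL6 (-0.078), RPL10A (0.013) and RPS19 (0.015). The cause was not tested. DESeq2 gave 5 higher and 27 lower.

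Libraries with the same replicate number did not deviate together (correlations of -0.066, 0.005 and 0.066), and the replicate block gave 5 higher and 34 lower. The median over ribosomal protein genes stayed below 0 under every alternative. Few counts limit RPS10 and RPL36A.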
